A study of Homo sapiens with 10 samples.

Results

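The genes described here are 10 integrin subunits for matrix adhesion, 6 alpha subunits (ITGA1, ITGA2, ITGA3, ITGA5, ITGA6, ITGAV) and 4 beta subunits (ITGB1, ITGB3, ITGB4, ITGB5), chosen by symbol from the 58735 lines of a gene count table. All 10 had 1 line each in the table. The study concerns USP9X and Wnt signaling in blood vessels of the central nervous system. The libraries were stranded poly(A) RNA-seq of HCMECs, a human brain cell line labelled endothelial. In 5 libraries (siUSP9X) the cells had received an siRNA against USP9X, a deubiquitinase, and in 5 (siCtrl) a control siRNA. Transfection lasted 48 h in both groups and was followed by 12 h of Wnt3a, so no library shows the cells without Wnt3a. All libraries are labelled as 1 cell line, and the siRNA sequences, and whether replicates were separate cultures, are not given in the sources used here. The p-values below therefore rest on differences among these libraries alone, and part of that spread may be technical.

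Integrins are receptors built of an alpha and a beta subunit, and the pair decides which matrix protein is bound. ITGB1 pairs with ITGA1 or ITGA2 to bind collagens, with ITGA3 or ITGA6 to bind laminins, and with ITGA5 to bind fibronectin. ITGAV pairs with ITGB1, ITGB3 or ITGB5 to bind RGD sequences, as in vitronectin, and ITGB4 pairs with ITGA6 in hemidesmosomes. In brain vessels, integrins hold endothelial cells to the basement membrane.

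USP9X, the gene targeted by the siRNA, had 36.5, 68.7, 27.5, 22.3 and 20.7 CPM (counts per 1000000, scaled by TMM factors) in siUSP9X libraries, against 415, 283, 330, 323 and 351 CPM in siCtrl libraries. It was 9.68-fold lower in siUSP9X (log2 fold change -3.28 ± 0.32 SE, edgeR quasi-likelihood adjusted p = 4.03e-04), with the highest siUSP9X value in replicate 2. Library depth was 15.96 to 26.47 times 1000000 counts. Of 11 endothelial markers, 4 had enough counts to be tested (CDH5, ESAM, EGFL7, ENG), and their list summed to 109 to 254 CPM in siUSP9X and 236 to 299 CPM in siCtrl. The defining marker ERG had 0 counts in every library and PECAM1 had 8 counts in siUSP9X and 8 in siCtrl, so the labelled cell type rests on few of its markers here. Of 7 epithelial markers, 3 were tested (EPCAM, KRT8, KRT18). Their list summed to 2029 to 2755 CPM in siUSP9X and 3313 to 4173 CPM in siCtrl, KRT5 and KRT14 were at 0, and KRT8 and KRT18 fell, by 0.45 and 0.74 on the log2 scale. Without siUSP9X replicate 2, the library described next, EGFL7 (log2 fold change -0.61), ENG (-0.39) and EPCAM (-1.26) were called lower as well. In that fit ESAM (0.00) and CDH5 (0.66) were not called, and 11.5% of all genes were called lower. With the GC and length offsets, also described next, EPCAM was called lower (-1.31). No endothelial marker was called with those offsets, EGFL7 (-0.60) and ENG (-0.24) included. Pericyte and smooth muscle markers summed to 2.5 to 4.17 CPM in siUSP9X and 2 to 3.03 CPM in siCtrl (2 of 6 tested), fibroblast markers to 1.82 to 2.77 and 1.36 to 2.38 CPM (2 of 5), and leukocyte markers to 1.04 to 2.52 and 1.67 to 3.14 CPM (2 of 5, with CD3E at 0). The pericyte marker RGS5 had no line under that symbol. Fewer cells of a type and less RNA per cell cannot be told apart in such bulk libraries. The part that these marker levels play in the integrin values was not tested.

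One library, siUSP9X replicate 2, stood apart along the GC content of transcripts, and this touches most of the integrins. Across 13862 tested genes sorted by GC content into 5 equal groups, its median log2 level minus the mean of its 4 partners was 0.75 in the lowest group and -0.81 in the highest. That span of -1.56 compares with -0.58 to 0.69 in the other 9 libraries. Results are therefore given with all 10 libraries, without siUSP9X replicate 2, and with all libraries after per-library offsets for transcript GC content and length.

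Promoter windows of members are shown so that the letters around the RefSeq start can be set beside the values of the members. Of those printed, only ITGA1 was called with all libraries. ITGA5 (higher) and ITGA6 (lower) were called without siUSP9X replicate 2 and with the GC and length offsets. For ITGA3 and ITGB4, the members called lower with all libraries, no window was found. RefSeq windows (GRCh38.p14, 250 bases before to 50 after the start) were matched by symbol for 7 of the 10 members, all but ITGA3, ITGB3 and ITGB4. The windows of ITGA1 (chr5:52787666-52787965, plus strand), ITGA5 (chr12:54419217-54419516, minus strand) and ITGA6 (chr2:172427086-172427385, plus strand) are printed 5′ to 3′, for 1 collagen, 1 fibronectin and 1 laminin receptor subunit. Capitals mark matches on either strand to 4 words, AP-1 (TGANTCA), SP1 (GGGCGG), TCF/LEF (TCAAAG) and TEAD (CATTCC), none of which overlap each other here.
ITGA1: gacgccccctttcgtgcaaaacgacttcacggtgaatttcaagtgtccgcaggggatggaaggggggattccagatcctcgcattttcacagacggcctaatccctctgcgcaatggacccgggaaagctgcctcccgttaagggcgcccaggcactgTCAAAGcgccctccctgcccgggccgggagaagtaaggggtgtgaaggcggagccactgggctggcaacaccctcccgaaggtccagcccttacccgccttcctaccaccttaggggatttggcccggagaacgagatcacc
ITGA5: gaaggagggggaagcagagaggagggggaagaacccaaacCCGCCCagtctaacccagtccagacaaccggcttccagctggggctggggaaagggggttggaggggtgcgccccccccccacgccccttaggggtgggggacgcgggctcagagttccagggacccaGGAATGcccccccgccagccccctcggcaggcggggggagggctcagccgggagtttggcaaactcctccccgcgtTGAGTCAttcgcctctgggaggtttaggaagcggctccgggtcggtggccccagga
ITGA6: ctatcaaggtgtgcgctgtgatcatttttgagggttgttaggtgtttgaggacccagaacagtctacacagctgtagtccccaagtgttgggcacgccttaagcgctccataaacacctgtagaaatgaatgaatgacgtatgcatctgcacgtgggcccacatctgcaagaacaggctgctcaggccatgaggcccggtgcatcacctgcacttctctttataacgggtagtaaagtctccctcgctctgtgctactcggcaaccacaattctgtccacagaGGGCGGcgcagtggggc
The ITGA1 window holds 1 TCF/LEF word, which 12.9% of all 35116 windows hold. The ITGA5 window holds 1 AP-1, 1 SP1 and 1 TEAD word, held by 7.7%, 45.0% and 14.0% of all windows. The ITGA6 window holds 1 SP1 word, downstream of the start. Of the 4 windows not printed, ITGA2 holds 4 SP1 words, ITGB1 holds 3 SP1 and 1 TEAD word, ITGB5 holds 3 SP1 words and ITGAV holds none. The words are descriptions of these windows and say nothing of binding.

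With all 10 libraries, ITGA3 and ITGB4 fell, ITGA1 rose and the other 7 subunits did not pass the threshold of adjusted p under 0.05. Over all 13934 genes tested, 4.09% were called higher and 3.22% lower (7.31% in either direction). Among the 10 members, 6 had an unadjusted p under 0.05, against 27.8% of all tested genes. The siUSP9X and siCtrl values did not overlap for 4 members, 2 above (ITGA1, ITGB3) and 2 below (ITGA3, ITGB4), against 14.6% of all tested genes (7.79% above and 6.85% below). Leaving out siUSP9X replicate 2, 7 did not overlap, 4 above (ITGA1, ITGA5, ITGB3, ITGB5) and 3 below (ITGA3, ITGA6, ITGB4), against 20.0% of all tested genes (10.4% above and 9.54% below). In the test without that library, 5 members were called higher (ITGA1, ITGA5, ITGB1, ITGB3, ITGB5) and 3 lower (ITGA3, ITGA6, ITGB4), beside 11.9% and 11.5% of all genes tested. With the GC and length offsets, 4 were higher (ITGA1, ITGA5, ITGB3, ITGB5) and 3 lower (ITGA3, ITGA6, ITGB4), beside 11.6% and 10.7%. The median log2 fold change of the 10 was 0.33 with all libraries, where that of all genes was 0.026, 0.19 without siUSP9X replicate 2 and 0.04 with GC and length offsets, where 5 members were positive and 5 negative.

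**Figure D1:**
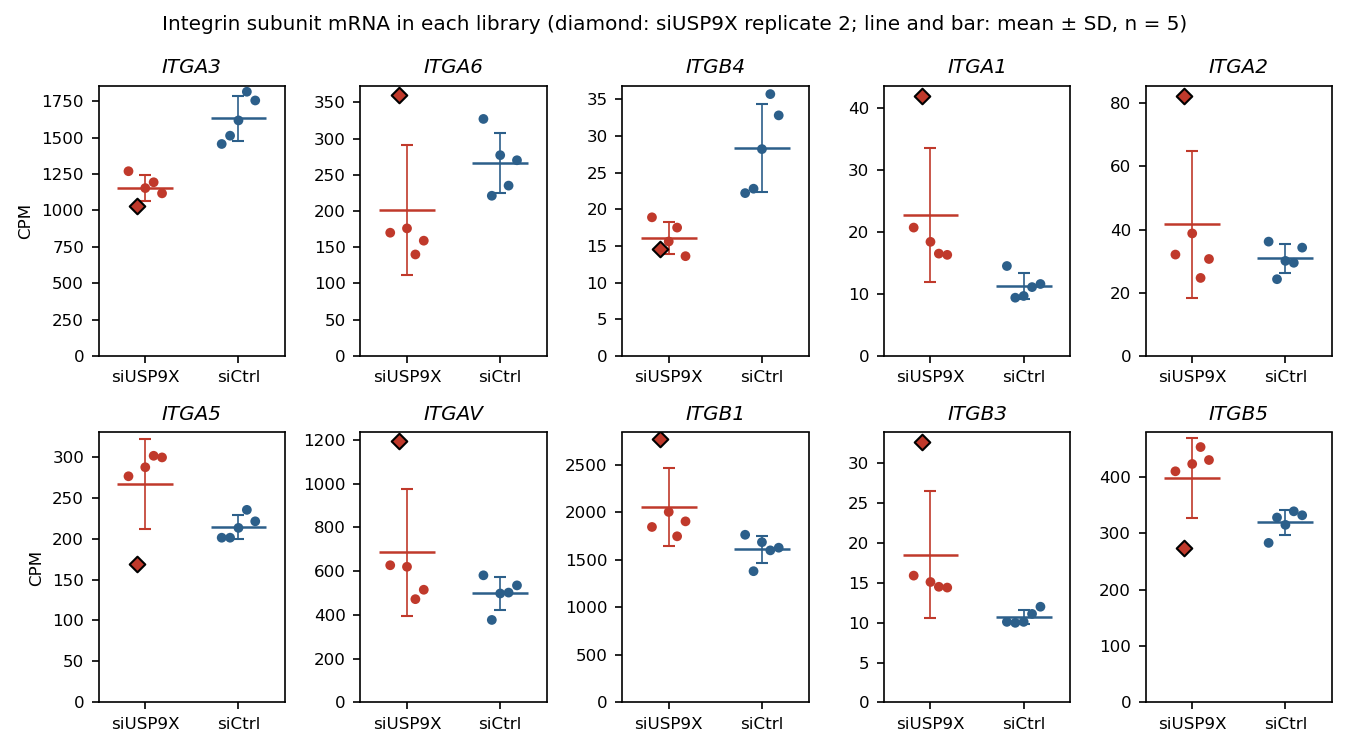
Each panel plots the CPM (linear axis from 0) of 1 subunit in the 5 siUSP9X and 5 siCtrl libraries, with the mean and SD of each group. The diamond is siUSP9X replicate 2, which lies above the other 4 siUSP9X libraries for ITGA6, ITGA1, ITGA2, ITGAV, ITGB1 and ITGB3 and below them for ITGA3, ITGA5 and ITGB5.

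Among the laminin-binding subunits, ITGA3 (chr17:50055968-50090481, plus strand, GENCODE 29) forms a laminin receptor with ITGB1. It had 1269, 1027, 1153, 1193 and 1117 CPM in siUSP9X libraries, against 1456, 1513, 1618, 1815 and 1755 CPM in siCtrl libraries. Every siUSP9X library was below every siCtrl library. The means were 1152 ± 89.6 CPM in siUSP9X and 1631 ± 153 CPM in siCtrl (SD, n = 5 each). The log2 fold change was -0.50 ± 0.10 (edgeR adjusted p = 0.0135), and it was -0.46 ± 0.08 (3.60e-04) without siUSP9X replicate 2 and -0.33 ± 0.09 (0.0188) with GC and length offsets. ITGA3 was called lower with each of the 10 libraries left out in turn.

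ITGB4 (chr17:75721328-75757818, plus strand), the beta subunit whose long cytoplasmic tail links to keratin filaments through plectin, was a low-level gene. It had 18.9, 14.6, 15.6, 17.5 and 13.6 CPM in siUSP9X libraries, against 22.2, 22.8, 28.2, 35.7 and 32.8 CPM in siCtrl libraries. Here too the groups did not overlap, and the siCtrl libraries spread more widely than the siUSP9X ones. The means were 16 ± 2.14 CPM in siUSP9X and 28.3 ± 5.95 CPM in siCtrl (SD, n = 5 each). ITGB4 fell by 0.82 ± 0.16 on the log2 scale (edgeR adjusted p = 0.0128), or fell by 0.79 ± 0.14 without siUSP9X replicate 2 (6.25e-04), and was called lower with each library left out in turn. The keratins KRT8 and KRT18, given above, were lower in the same libraries.

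ITGA6 (chr2:172427354-172506282, plus strand), the laminin-binding partner of both ITGB1 and ITGB4, had 170, 360, 176, 140 and 159 CPM in siUSP9X libraries, against 327, 221, 277, 235 and 270 CPM in siCtrl libraries. The value of 360 in siUSP9X replicate 2 was the highest of all 10, and the other 4 siUSP9X libraries were below every siCtrl library. With all libraries the log2 fold change of -0.40 ± 0.24 did not pass (edgeR adjusted p = 0.281). Without siUSP9X replicate 2 it was -0.72 ± 0.11 (adjusted p = 9.55e-05), with means of 161 ± 15.8 CPM in siUSP9X (SD, n = 4) and 266 ± 41.3 CPM in siCtrl (SD, n = 5). The GC and length offsets, which keep all libraries, gave -0.72 ± 0.10 (2.10e-04).

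Of the collagen-binding subunits, ITGA1 (chr5:52787896-52959210, plus strand), the receptor subunit for basement membrane collagen, rose. It had 20.7, 41.9, 18.4, 16.5 and 16.3 CPM in siUSP9X libraries, against 14.5, 9.39, 9.67, 11.1 and 11.6 CPM in siCtrl libraries. The groups did not overlap, but siUSP9X replicate 2 was far above its 4 partners. The means were 22.8 ± 10.8 CPM in siUSP9X and 11.2 ± 2.03 CPM in siCtrl (SD, n = 5 each), and the difference was 1.02 ± 0.26 on the log2 scale (edgeR adjusted p = 0.0403). Without siUSP9X replicate 2 it was 0.68 ± 0.13 (0.00113), and with GC and length offsets 0.43 ± 0.09 (0.00597). The call is close to the threshold: it was kept with 4 of the 10 libraries left out in turn, and the adjusted p reached 0.173 over all 19 alternatives. ITGA1 shares exons on the same strand with PELO, whose counts (3047 in siUSP9X and 3724 in siCtrl, log2 fold change -0.05 ± 0.13) did not pass the test.

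ITGA2 (chr5:52989326-53094779, plus strand), the neighbouring gene and the receptor subunit for fibrillar collagen, had 32.1, 82.3, 38.8, 24.7 and 30.7 CPM in siUSP9X libraries, against 36.2, 24.3, 30.1, 29.5 and 34.3 CPM in siCtrl libraries. Apart from 82.3 CPM in siUSP9X replicate 2, the groups covered nearly the same range. The log2 fold change was 0.43 ± 0.29 with all libraries (edgeR adjusted p = 0.329), 0.03 ± 0.13 without siUSP9X replicate 2 (0.879) and -0.07 with GC and length offsets.

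The fibronectin receptor subunit ITGA5 (chr12:54395261-54419460, minus strand) had 276, 169, 287, 301 and 299 CPM in siUSP9X libraries, against 201, 201, 213, 235 and 221 CPM in siCtrl libraries. Replicate 2 was the lowest of all 10, and the other 4 siUSP9X libraries were above every siCtrl library. The log2 fold change was 0.31 ± 0.15 with all libraries and did not pass (edgeR adjusted p = 0.197). Without siUSP9X replicate 2 it was 0.44 ± 0.07 (2.37e-04), with means of 291 ± 11.6 CPM in siUSP9X (SD, n = 4) and 214 ± 14.6 CPM in siCtrl (SD, n = 5). With the GC and length offsets it was 0.44 (6.97e-04).

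ITGB5 (chr3:124761948-124901418, minus strand), a partner of ITGAV in a vitronectin receptor, had 410, 274, 423, 453 and 430 CPM in siUSP9X libraries, against 283, 328, 315, 339 and 332 CPM in siCtrl libraries. Replicate 2 was again the lowest, and the other 4 siUSP9X libraries were above all of siCtrl. For ITGB5 the log2 fold change was 0.32 ± 0.13 with all libraries (edgeR adjusted p = 0.152), 0.43 ± 0.07 without siUSP9X replicate 2 (3.06e-04) and 0.38 with GC and length offsets (0.00576).

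ITGB3 (chr17:47253846-47311816, plus strand), the other vitronectin receptor partner of ITGAV, known from platelets and growing vessels, had 15.9, 32.7, 15.1, 14.5 and 14.4 CPM in siUSP9X libraries, against 10.1, 9.98, 10.1, 11.1 and 12 CPM in siCtrl libraries. The groups did not overlap and the siCtrl values lay close together. The log2 fold change of 0.80 ± 0.23 narrowly missed the threshold with all libraries (edgeR adjusted p = 0.0563). It was 0.49 ± 0.10 without siUSP9X replicate 2 (0.00229) and 0.87 ± 0.24 with GC and length offsets (0.0202). In siUSP9X replicate 2, ITGB3 was 1.13 above its partners on the log2 scale. The median of that library over genes of like GC content (51.5 to 58.1%) was -0.43. The fold change with offsets thus still holds the high value of replicate 2. The same-strand gene AC068234.1, which shares exons with ITGB3, had 0 counts in every library. Of the platelet markers ITGA2B, GP9 and PF4, whose sum was 1.8 to 2.65 CPM in siUSP9X and 0.679 to 1.74 CPM in siCtrl, GP9 and PF4 were at 0 in all libraries.

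ITGAV (chr2:186590065-186680901, plus strand), the alpha subunit of the vitronectin receptors, had 627, 1193, 620, 472 and 515 CPM in siUSP9X libraries, against 581, 377, 498, 502 and 535 CPM in siCtrl libraries. The groups overlapped with and without the 1193 CPM of siUSP9X replicate 2. Its log2 fold change was 0.46 ± 0.24 with all libraries (edgeR adjusted p = 0.221), 0.17 ± 0.11 without siUSP9X replicate 2 (0.304) and -0.02 with GC and length offsets. ITGAV thus did not pass under any of these fits.

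ITGB1 (chr10:32900319-33005792, minus strand), the common partner of most alpha subunits here, had 1845, 2769, 2003, 1747 and 1904 CPM in siUSP9X libraries, against 1763, 1380, 1685, 1599 and 1627 CPM in siCtrl libraries. Only siUSP9X replicate 4 was below the highest siCtrl library. Across all libraries ITGB1 had a log2 fold change of 0.35 ± 0.13 (edgeR adjusted p = 0.121) and 0.22 ± 0.08 without siUSP9X replicate 2, just past the threshold (0.047). With the GC and length offsets it was 0.10 (0.348). ITGA3, its laminin partner, fell in the same libraries.

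**Figure D2:**
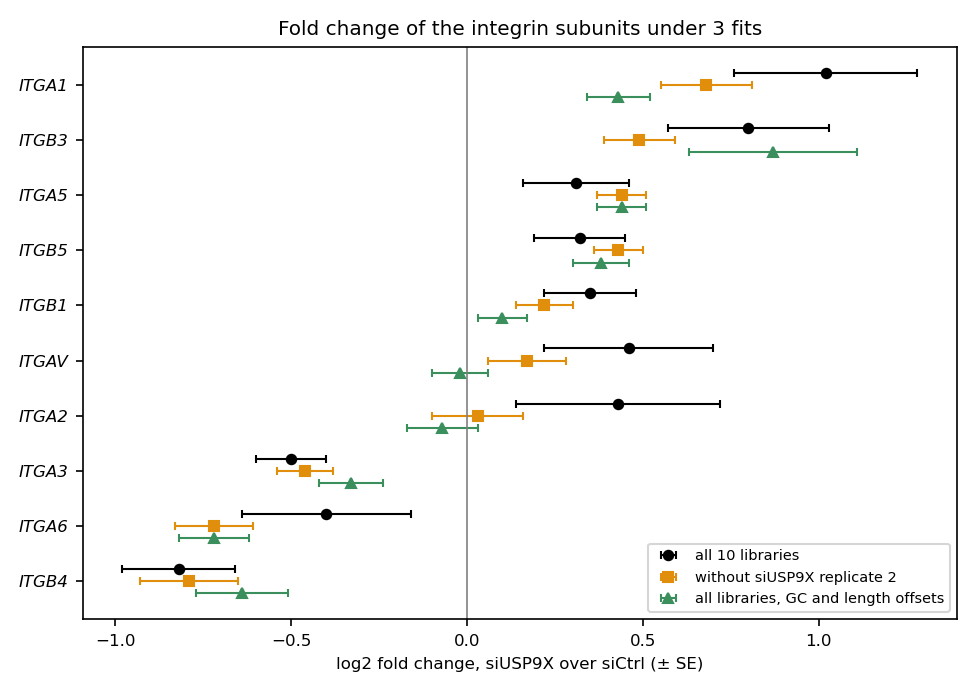
The log2 fold change of siUSP9X over siCtrl (± SE) is plotted for each subunit with all 10 libraries (circles), without siUSP9X replicate 2 (squares) and with GC and length offsets (triangles). ITGA3, ITGA6 and ITGB4 lie below 0 in the 3 fits, ITGA1, ITGB3, ITGA5, ITGB5 and ITGB1 above 0, and ITGA2 and ITGAV on either side of 0.

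Levels can be set side by side between genes as CPM per kb of exon. In siUSP9X the order was ITGB1 (342 CPM per kb), ITGA3 (118), ITGAV (83.5), ITGB5 (61.7), ITGA5 (35.1), ITGA6 (30.7), ITGA2 (5.28), ITGB3 (4.21), ITGB4 (2.37) and ITGA1 (1.23). In siCtrl it was ITGB1 (268 CPM per kb), ITGA3 (166), ITGAV (60.7), ITGB5 (49.6), ITGA6 (40.7), ITGA5 (28.3), ITGB4 (4.19), ITGA2 (3.91), ITGB3 (2.42) and ITGA1 (0.606). A wide gap in both groups separates the first 6 subunits from the last 4. The neighbours whose libraries overlapped in siUSP9X were ITGA3 and ITGAV, ITGAV and ITGB5, ITGA5 and ITGA6, ITGA2 and ITGB3, and ITGB4 and ITGA1. In siCtrl they were ITGAV and ITGB5, ITGB5 and ITGA6, and ITGB4 and ITGA2. ITGA6 stood above ITGA5 with no overlap in siCtrl, and below it with no overlap in siUSP9X without replicate 2 (24.6 against 38.4 CPM per kb).

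**Figure D3:**
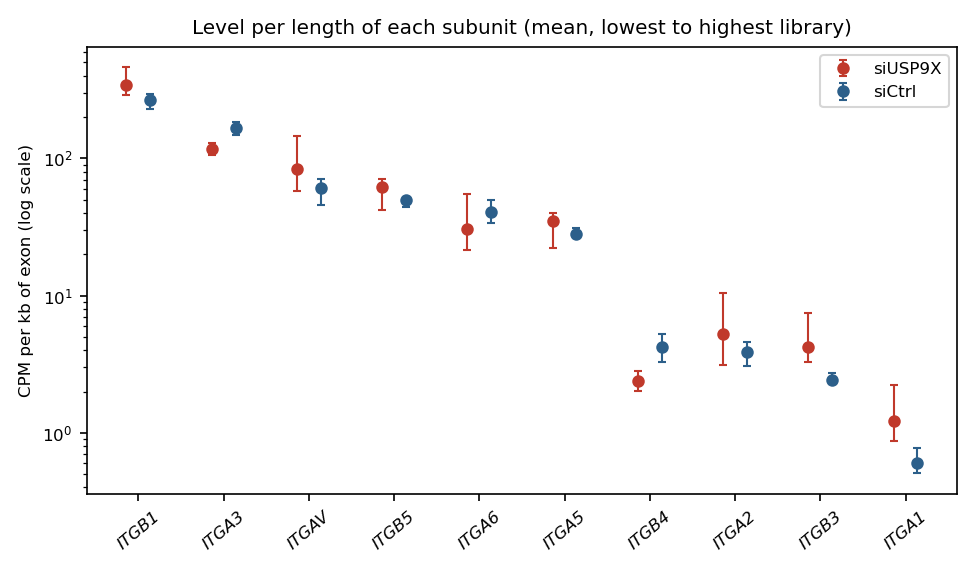
The level of each subunit in CPM per kb of exon (log axis) is plotted as the mean of siUSP9X and of siCtrl, with bars from the lowest to the highest library. ITGB1 is the highest in both groups, at 342 CPM per kb in siUSP9X and 268 in siCtrl, and ITGA1 the lowest, at 1.23 and 0.606.

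Summed by ligand and per length, ITGA3 and ITGA6, which bind laminin, made up 56.9, 47, 54.8, 58.6 and 56.4% of the 6 alpha subunits in siUSP9X libraries, against 65.9, 71.2, 69, 69.6 and 68.9% in siCtrl libraries. The groups did not overlap, with means of 54.7 ± 4.51% in siUSP9X and 68.9 ± 1.93% in siCtrl (SD, n = 5 each). ITGA5 and ITGAV, which bind RGD sequences, made up 43 ± 3.68% in siUSP9X and 29.6 ± 1.76% in siCtrl, and these ranges did not overlap either (39.8 to 49.3% in siUSP9X, 27.4 to 32.3% in siCtrl). The collagen-binding ITGA1 and ITGA2 held 2.29 ± 0.83% in siUSP9X and 1.5 ± 0.176% in siCtrl, with overlap. In siUSP9X without replicate 2, the laminin-binding share was 56.6 ± 1.56% and the RGD-binding share 41.4 ± 1.32% (SD, n = 4). Both still lay outside the siCtrl ranges. No GC and length offsets were applied to the shares. With those offsets the log2 fold change was -0.33 for ITGA3, -0.72 for ITGA6, 0.44 for ITGA5 and -0.02 for ITGAV. The shares were formed after the values of the members were known and carry no test.

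**Figure D4:**
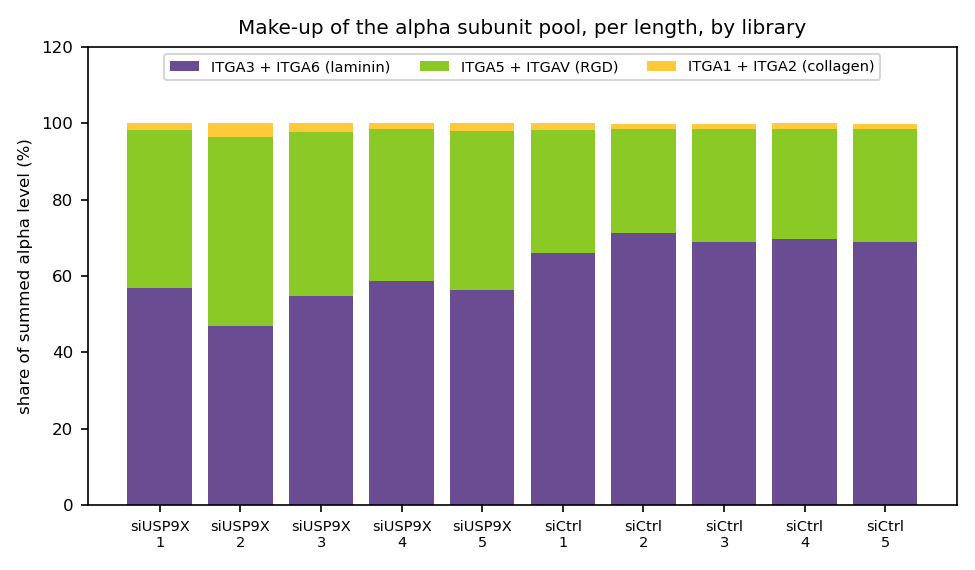
Bars give the share (%) of the summed alpha subunit level, per length, held by laminin-binding, RGD-binding and collagen-binding subunits in each of the 5 siUSP9X and 5 siCtrl libraries. The laminin-binding share is 47 to 58.6% in siUSP9X and 65.9 to 71.2% in siCtrl.

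Among the beta subunits, ITGB1 held 82.9 ± 4.07% of the summed level in siUSP9X and 82.6 ± 2.04% in siCtrl, and the libraries overlapped. ITGB4 held 0.591 ± 0.132% in siUSP9X and 1.29 ± 0.257% in siCtrl, with no overlap. The summed alpha level was 0.667 ± 0.0352 of the summed beta level in siUSP9X and 0.928 ± 0.0426 of it in siCtrl, again with no overlap (0.631 to 0.725 in siUSP9X, 0.879 to 0.973 in siCtrl). The ratio of ITGA3 to ITGB1 was 0.356 ± 0.0787 in siUSP9X and 0.625 ± 0.0774 in siCtrl, with no overlap. In siUSP9X without replicate 2 this ratio was 0.388 ± 0.0371 (SD, n = 4), still with no overlap. ITGA3 transcripts are 60.9% GC and ITGB1 transcripts 40%, and no GC and length offsets were applied to these ratios. With the offsets the log2 fold change was -0.33 for ITGA3 and 0.10 for ITGB1. The ratio of ITGA6 to ITGB4 overlapped, at 13.4 ± 6.99 in siUSP9X and 10.1 ± 3.15 in siCtrl (SD, n = 5 each). It was 25.5 in siUSP9X replicate 2 and 10.3 ± 1.83 in the other 4 siUSP9X libraries (SD, n = 4).

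The direction in which siUSP9X replicate 2 departed from its partners followed transcript GC content in most members. Its log2 level minus the mean of the other 4 siUSP9X libraries was 1.22 for ITGA1, 1.38 for ITGA2, 1.16 for ITGA6, 1.09 for ITGAV and 0.56 for ITGB1, whose transcripts are 38.3 to 42.9% GC. It was -0.65 for ITGB5 (54.3% GC), -0.79 for ITGA5 (58.7%), -0.20 for ITGA3 (60.9%) and -0.17 for ITGB4 (63.7%). ITGB3 differed, with 1.13 at 52.3% GC.

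**Figure D5:**
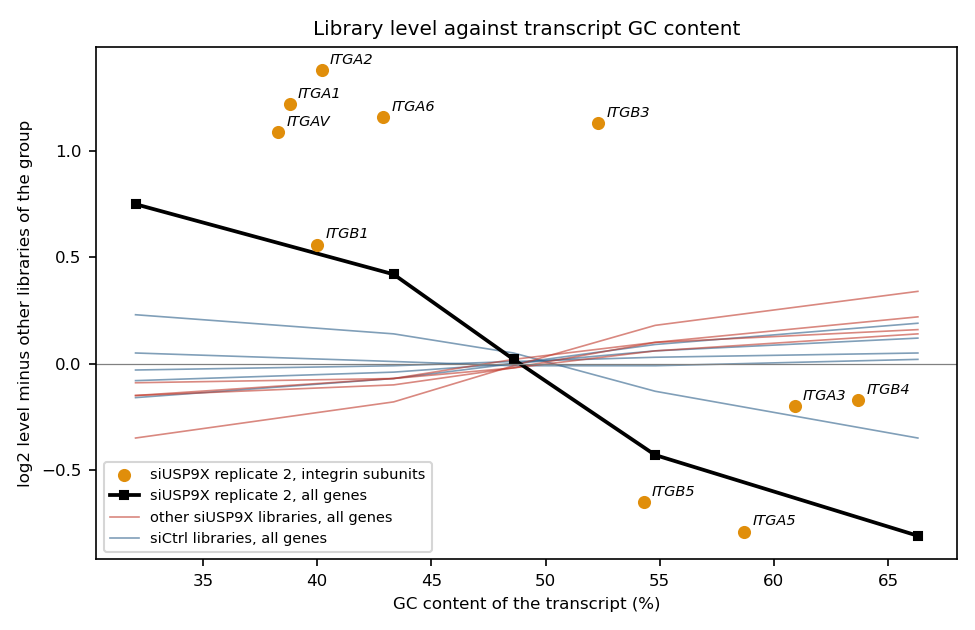
The log2 level of a library minus the mean of the other 4 of its group is plotted against transcript GC content (%), as medians over 5 equal groups of genes for each library (lines) and for the 10 subunits in siUSP9X replicate 2 (points). The line of siUSP9X replicate 2 runs from 0.75 to -0.81, and ITGB3 is the point farthest from it.

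The genes whose centred log2 levels lay closest to those of ITGA3 over the 10 libraries, among 13934, were FAM83H (mean absolute difference 0.043), MST1R (0.056) and DAB2IP (0.057), where the mean absolute deviation of ITGA3 itself was 0.250. For ITGB4 they were CYP51A1 (0.102), AP1G2 (0.106) and SHC1 (0.124), against 0.393 for ITGB4 itself. For ITGA1 they were DDX60L (0.077), ARID4A (0.087) and RSF1 (0.088), against 0.452 for ITGA1 itself. The likeness is a description over libraries that share their depth and composition.

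Most of the remaining integrin subunits were low. In CPM, ITGAE was near the lowest members (ITGA1, ITGB3 and ITGB4) and ITGB8 somewhat below them. Of 16 listed, 7 had enough counts to be tested, and none passed in either direction with all libraries by edgeR, although 3 had an unadjusted p under 0.05 (27.8% of all genes did) and DESeq2, which called 17.1% of all genes, called 2. ITGA2B, known as the platelet partner of ITGB3, had 2.31 ± 0.311 CPM in siUSP9X and 1.27 ± 0.387 CPM in siCtrl (log2 fold change 0.86 ± 0.24, edgeR adjusted p = 0.0546). ITGB8, a partner of ITGAV that activates latent TGF-beta, had 13 ± 6.92 CPM in siUSP9X and 7.31 ± 1.33 CPM in siCtrl (adjusted p = 0.0961). ITGAE, known from lymphocytes in epithelia, had 15.3 ± 5.22 CPM in siUSP9X and 22.9 ± 3.25 CPM in siCtrl (adjusted p = 0.156). These 3 passed without siUSP9X replicate 2, where the log2 fold change was 0.84 for ITGA2B (edgeR adjusted p = 0.0247), 0.45 for ITGB8 (0.0331) and -0.38 for ITGAE (0.0207). Of all genes tested without that library, 11.9% were called higher and 11.5% lower. ITGB8 moved most, since its log2 fold change was 0.84 ± 0.29 with all libraries and 0.26 ± 0.12 with GC and length offsets, where only ITGA2B passed (0.00672). ITGA8 had 0 counts in every library, which allows up to 0.035 CPM in siUSP9X and 0.0298 CPM in siCtrl over the pooled counts (counting error only). Among the leukocyte subunits, ITGAL, ITGAX, ITGAD and ITGB7 had at most 4 counts over the libraries of siUSP9X or of siCtrl. ITGB2, the beta partner of the first 3, had 144 counts in siUSP9X and 304 in siCtrl (log2 fold change -0.83 ± 0.54, edgeR adjusted p = 0.324), and ITGAM had 67 in siUSP9X and 85 in siCtrl (adjusted p = 0.895).

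Of the 20 genes listed as integrin adaptors, activators and other partners, 19 were tested, none was called higher and 2 were called lower. Among all tested genes, 4.09% were called higher and 3.22% lower. FERMT2 (kindlin-2), which binds beta tails and activates integrins with talin, had 49.2, 66.1, 42, 42.5 and 44.1 CPM in siUSP9X libraries, against 96.2, 80.2, 86.8, 78 and 82.1 CPM in siCtrl libraries. The groups did not overlap, and FERMT2 fell by 0.79 ± 0.14 on the log2 scale (edgeR adjusted p = 0.00773), which was called with each library left out in turn. RAP1A, a small GTPase upstream of talin, had 39 ± 3.07 CPM in siUSP9X and 53.5 ± 5.15 CPM in siCtrl (log2 fold change -0.45 ± 0.10, adjusted p = 0.0255, called with 3 of the 10 libraries left out in turn). The median over the list was 0.04, close to that of all genes. Leaving out siUSP9X replicate 2, 3 were higher (LIMS2, KRIT1, DAB2) and 5 lower (FERMT1, FERMT2, PARVB, ITGB1BP1, RAP1A). Over all genes those shares were 11.9% and 11.5%.

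None of the 22 tested focal adhesion kinases and scaffolds, of 25 listed, passed with all libraries by edgeR, where 10 had an unadjusted p under 0.05 and DESeq2 called 5. Over all genes those shares were 27.8% and 17.1%. TNS3, a tensin that binds beta tails, had 176 ± 25.2 CPM in siUSP9X and 133 ± 16.8 CPM in siCtrl (log2 fold change 0.40 ± 0.13, edgeR adjusted p = 0.0756). The kinase FYN had 12.7 ± 0.748 CPM in siUSP9X and 15.6 ± 0.784 CPM in siCtrl (adjusted p = 0.0828), and the adaptor CRKL 170 ± 9.95 CPM in siUSP9X and 142 ± 11.3 CPM in siCtrl (adjusted p = 0.0994). For each of these 3, named for their small p, the groups did not overlap, and they were the only 3 of the 22 without overlap, beside 14.6% of all genes. When siUSP9X replicate 2 was left out, 5 of the list were higher (PTK2B, CRKL, TNS3, LPP, ACTN1) and 1 lower (FYN). In that fit 11.9% of all genes were called higher and 11.5% lower.

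Of the 7 hemidesmosome partners, all tested, 2 fell and none rose with all libraries, beside 3.22% of all genes called lower. The list median was -0.37 with all libraries, -0.23 without siUSP9X replicate 2 and -0.13 with GC and length offsets. DST, a plakin that anchors filaments, was called higher without siUSP9X replicate 2 (log2 fold change 0.67, edgeR adjusted p = 0.019) and with GC and length offsets (0.51, adjusted p = 0.00863), but not with all libraries (1.25, adjusted p = 0.0723). LAMB3, a laminin chain of epithelial basement membranes, was among those that fell. It had 172, 116, 165, 167 and 147 CPM in siUSP9X libraries, against 185, 213, 217, 239 and 249 CPM in siCtrl libraries, and these groups did not overlap, with the lowest value of all in siUSP9X replicate 2. LAMB3 fell by 0.52 ± 0.13 on the log2 scale (edgeR adjusted p = 0.034), a call kept with 4 of the 10 libraries left out in turn.

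Of 34 matrix ligands, 32 were found by symbol, and CCN1 and CCN2 had no line under those symbols. Of the list, 22 were tested, 1 was higher and 3 were lower, LAMB3 among them. The shares of all tested genes were 4.09% higher and 3.22% lower. COL4A1, a chain of the basement membrane collagen that ITGA1 binds, had 94.7, 62.7, 102, 111 and 104 CPM in siUSP9X libraries, against 149, 128, 146, 165 and 169 CPM in siCtrl libraries. The groups did not overlap, and the log2 fold change was -0.67 ± 0.15 (edgeR adjusted p = 0.0238), called with 6 of the 10 libraries left out in turn. COL4A2, another chain of that collagen, did not pass (log2 fold change 0.08 ± 0.19, edgeR adjusted p = 0.8). COL5A2, a fibrillar collagen chain, was low in both groups, at 3.44 ± 0.53 CPM in siUSP9X and 1.79 ± 0.183 CPM in siCtrl (0.95 ± 0.17, adjusted p = 0.00794). Without siUSP9X replicate 2, FN1, THBS1 and FBN1, RGD proteins of the matrix, were called higher too, with log2 fold changes of 0.55, 0.28 and 0.47. That fit called 11.9% of all genes higher. The list median was 0.07 with all libraries.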

How the data were processed

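Gene expression was measured in 10 libraries, 5 siUSP9X and 5 siCtrl, with groups taken from the treatment label and replicate numbers from the titles. The deposited values are counts, whole numbers per gene symbol with no normalization. Libraries were stranded poly(A), per the labels' protocols. Per the submitters' processing notes, hg38, RSEM and DESeq2 were used, with no version or role stated. The aligner and annotation, and whether the counts are rounded RSEM estimates, are not given in the sources used here. Rounded estimates would hold reads already split between similar genes. Symbols matched 1 GENCODE 29 gene (GRCh38) for 96.9% of 58735 lines, and coordinates and exon lengths come from it.

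Counts were tested with edgeR 4.0.16 (R 4.3.3) quasi-likelihood tests, TMM factors, filterByExpr (minimum count 10) and no covariate. Two-sided p-values were adjusted by Benjamini-Hochberg over all 13934 tested genes, with a threshold of 0.05. The SE is the log2 fold change divided by the square root of F. Library totals of 15.96 to 26.47 in units of 1000000 counts set the depth, and at the lowest member level a library held 172 counts of ITGA1. CPM per kb divides CPM by the union of annotated exons. GC and length offsets are loess trends of each library. Alternatives were other scalings, filters, DESeq2 1.42.0, limma-voom (limma 3.58.1), a replicate block and each library left out. The fit was tested on simulated data. Where RefSeq held several promoter windows, the one with most GENCODE starts within 100 bases was used. The ITGA5 window had no GENCODE protein-coding start within 100 bases of its RefSeq start.

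The members and lists were chosen with earlier results of these data known. Named genes were USP9X, all members, every list gene past the threshold or else the 3 with the smallest p, and for each called member the 3 genes closest by mean absolute difference of centred log2(CPM + 0.5). The values of 1 list gene that this rule names are not reported here.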

Additional observations from a re-analysis of the deposited data

Results flagged for a closer look

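Among 46 checks for a library far from the other 4 of its group, 11 were met, all in siUSP9X replicate 2. Chance meets such a check in about 1 of 20 groups. The values were high for ITGA1 (41.9 CPM), ITGA2 (82.3 CPM), ITGA6 (360 CPM), ITGAV (1193 CPM), ITGB1 (2769 CPM), ITGB3 (32.7 CPM), ITGB8 (25.2 CPM) and TNS3 (220 CPM). They were low for ITGA5 (169 CPM), ITGB5 (274 CPM) and ITGAE (6.36 CPM). The 11 checks share 1 library and are not independent. The cause was not tested.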

How the results depend on the processing

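USP9X was called lower in all 19 alternatives. ITGA3 and ITGB4 were called lower in 18 of 19, the exception being the replicate block. Without 1 library at a time, 0 to 5 members were called higher and 2 to 3 lower, and over all genes 170 to 1674 higher and 189 to 1620 lower. The same ranges were 0 to 3 for other integrin subunits, 1 to 8 for adaptors, 0 to 6 for focal adhesion genes, 1 to 3 for hemidesmosome partners and 2 to 7 for matrix ligands. Library totals alone, no low-count filter, a minimum of 5 CPM in 5 libraries, and DESeq2 each called 2 members higher. Library totals left 1 hemidesmosome partner, and no filter left 1 adaptor. DESeq2 called 1264 genes higher and 1078 lower, with 2 other subunits, 5 adaptors and 5 focal adhesion genes. GC and length offsets, added after seeing the data, called 4 members higher and 3 lower, 1613 genes higher and 1494 lower, 1 other subunit, 6 adaptors, 8 focal adhesion genes and 7 ligands. ITGA2 (-0.07) and ITGAV (-0.02) changed sign with those offsets, below the threshold on either side. By longest transcript in place of exon union, 8 of 10 members kept their rank in siCtrl and 10 in siUSP9X.

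The replicate numbers showed no pairing of the libraries. Same-numbered deviations correlated at -0.441, -0.494, -0.0251, 0.284 and -0.0458, and siUSP9X libraries did not all correlate best with their own number. These deviations hold the GC trends of the libraries, so the check cannot exclude a pairing. The replicate block called 34 genes higher and 57 lower, with 0 members higher, 0 lower, and 0 adaptors, hemidesmosome partners or ligands. A replicate block without number 2 of both groups, added after seeing the data, called 1582 genes higher and 1855 lower, 4 members higher and 3 lower, 2 other subunits, 7 adaptors, 4 focal adhesion genes, 4 hemidesmosome partners and 8 ligands, and gave -0.08 for ITGA2. Depth limits ITGA1, ITGB3 and ITGB4 most among the members, and splice forms of a subunit cannot be told apart in counts per gene.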
